A study of Mus musculus with 8 samples.

Results

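The 35 genes described here make cholesterol and fatty acids or control that synthesis. They were chosen by name: 17 enzymes of the sterol route from Hmgcs1 to Dhcr7, 12 enzymes of fatty acid synthesis, desaturation and elongation, and 6 genes for control or transport (Srebf1, Srebf2, Insig1, Insig2, Scap and the sterol carrier Stard4). All 35 were matched on the array, which holds 28098 genes and unnamed transcripts, through 67 of its 41174 probes, and the brightest probe of each gene stands for it below. The arrays measured colon RNA of 8 male mice, 1 array per mouse. Of these, 4 came from Mdr1a-/- mice, in which Abcb1a, the gene of a membrane pump for drugs, is disrupted and which are prone to colitis, and these mice had a high histological injury score of the colon. The other 4 arrays are labelled as low-scoring wild-type FVB/N mice. All mice had the FVB/N background, ate the AIN-76A control diet, were aged 21 to 24 weeks, and per the protocols had been fasted overnight with food returned shortly before sampling. The mice were picked by injury score within each genotype, so genotype and injury cannot be told apart. Each sample was labelled with Cy3 and set against a common reference of pooled Swiss mouse tissues and fetuses labelled with Cy5, so every level below is log2(sample / reference), and a difference is Mdr1a-/- minus labelled FVB/N on the log2 scale. A level against this reference does not rank one gene against another.

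Cholesterol synthesis runs from acetyl-CoA through mevalonate, farnesyl diphosphate and squalene to lanosterol, which a chain of reductases, demethylases and isomerases turns into cholesterol. Fatty acid synthesis starts from cytosolic acetyl-CoA made from citrate by Acly, and Acaca and then Fasn build palmitate, which elongases and desaturases modify. Both routes answer to the SREBP factors encoded by Srebf1 and Srebf2. Scap carries these factors out of the endoplasmic reticulum when sterols are scarce, and the Insig proteins hold them back when sterols are plentiful. Srebf2 acts mainly on sterol genes and the short form of Srebf1 mainly on fatty acid genes. In the gut, the epithelium makes its own sterols, and fat tissue around the colon is rich in the fatty acid enzymes.

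SREBP factors bind sterol regulatory elements and act together with NF-Y, which binds CCAAT, so the RefSeq promoters of these genes (GRCm38.p6, 250 bases before to 50 after the start) were searched on both strands. An entry was found for 28 of the 35 genes. The letters CCAAT occurred for 14 of 14 sterol enzymes, for 6 of 9 fatty acid enzymes and for 4 of 5 control genes, against 41.1% of all 27025 genes in the table. A sterol regulatory element written TCACNCCAC occurred for Hmgcs1 alone, against 1.44% of all genes. The E-box CACGTG occurred for 6 of the 28 genes (Dhcr7, Hsd17b7, Sc5d, Elovl5, Insig1 and Scap), or 21.4%, against 8.09% of all genes. A match describes the letters of this window and is not a bound site. The stretches printed below are the 250 bases before the start of Hmgcs1, which holds the sterol element, and of the 4 genes with a CCAAT match there whose groups of arrays did not overlap. Capitals mark CCAAT, its reverse ATTGG, or the sterol element, and each is written 5′ to 3′ on the gene's strand. They lie at chr13:119690101-119690350 (plus strand) for Hmgcs1, chr19:6067851-6068100 (minus) for Tm7sf2, chrX:8193513-8193762 (minus) for Ebp, chr11:120824548-120824797 (minus) for Fasn and chr9:77917115-77917364 (plus) for Elovl5.
Hmgcs1 promoter: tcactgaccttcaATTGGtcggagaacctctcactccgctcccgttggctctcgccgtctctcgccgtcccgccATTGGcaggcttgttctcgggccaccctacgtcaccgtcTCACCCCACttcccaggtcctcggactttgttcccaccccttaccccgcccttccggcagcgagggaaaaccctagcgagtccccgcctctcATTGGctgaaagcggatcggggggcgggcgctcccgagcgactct
Tm7sf2 promoter: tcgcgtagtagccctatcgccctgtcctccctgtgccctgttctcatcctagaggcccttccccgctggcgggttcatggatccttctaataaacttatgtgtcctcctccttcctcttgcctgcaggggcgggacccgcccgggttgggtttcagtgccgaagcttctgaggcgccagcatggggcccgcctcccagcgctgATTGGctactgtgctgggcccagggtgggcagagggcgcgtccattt
Ebp promoter: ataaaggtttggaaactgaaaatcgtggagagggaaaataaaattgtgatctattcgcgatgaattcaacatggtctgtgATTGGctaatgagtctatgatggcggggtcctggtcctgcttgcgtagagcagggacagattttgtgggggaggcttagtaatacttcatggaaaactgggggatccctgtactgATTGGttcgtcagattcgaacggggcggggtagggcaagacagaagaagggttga
Fasn promoter: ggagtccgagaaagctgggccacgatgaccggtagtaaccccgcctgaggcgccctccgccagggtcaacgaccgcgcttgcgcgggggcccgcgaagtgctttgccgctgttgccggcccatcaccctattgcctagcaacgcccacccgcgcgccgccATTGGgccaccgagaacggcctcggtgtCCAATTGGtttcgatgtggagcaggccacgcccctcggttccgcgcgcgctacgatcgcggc
Elovl5 promoter: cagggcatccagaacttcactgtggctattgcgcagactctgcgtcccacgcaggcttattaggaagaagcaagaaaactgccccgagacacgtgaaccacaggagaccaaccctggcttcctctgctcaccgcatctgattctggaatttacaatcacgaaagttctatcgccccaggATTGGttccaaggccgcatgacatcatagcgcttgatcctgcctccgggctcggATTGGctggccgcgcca
In Hmgcs1 the sterol element TCACCCCAC starts 137 bases before the start. The CCAAT match nearest to the start lay 45 bases before it in Hmgcs1, 47 in Tm7sf2, 55 in Ebp, 59 in Fasn and 17 in Elovl5. The capitals CCAATTGG in Fasn hold overlapping matches on the 2 strands. Acly, the other gene whose groups did not overlap, has its only match outside those 250 bases and is not printed.

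None of the 35 genes passed the test between the groups at an adjusted p under 0.05 (limma, Benjamini-Hochberg over all probes), while 2.98% of all 41174 probes did, 1.53% higher and 1.45% lower. The 67 probes gave no call either, and the smallest adjusted p among them was 0.0571, that of Fasn. At an unadjusted p under 0.05, 4 genes were higher (Idi1, Tm7sf2, Hsd17b7 and Elovl5) against 7.87% of all probes, and 7 were lower (Ebp, Dhcr7, Srebf1, Acly, Fasn, Scd1 and Fads2) against 7.03%. The 4 arrays of each group did not overlap for 5 genes, or 14.3%, against 10.3% of all probes. Tm7sf2 and Elovl5 lay above (5.31% of all probes did), and Ebp, Acly and Fasn lay below (4.94%). With a median standard error of 0.20 on the log2 scale, ranging from 0.14 to 0.91, the arrays do not show that the other genes were alike in both groups.

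**Figure D1:**
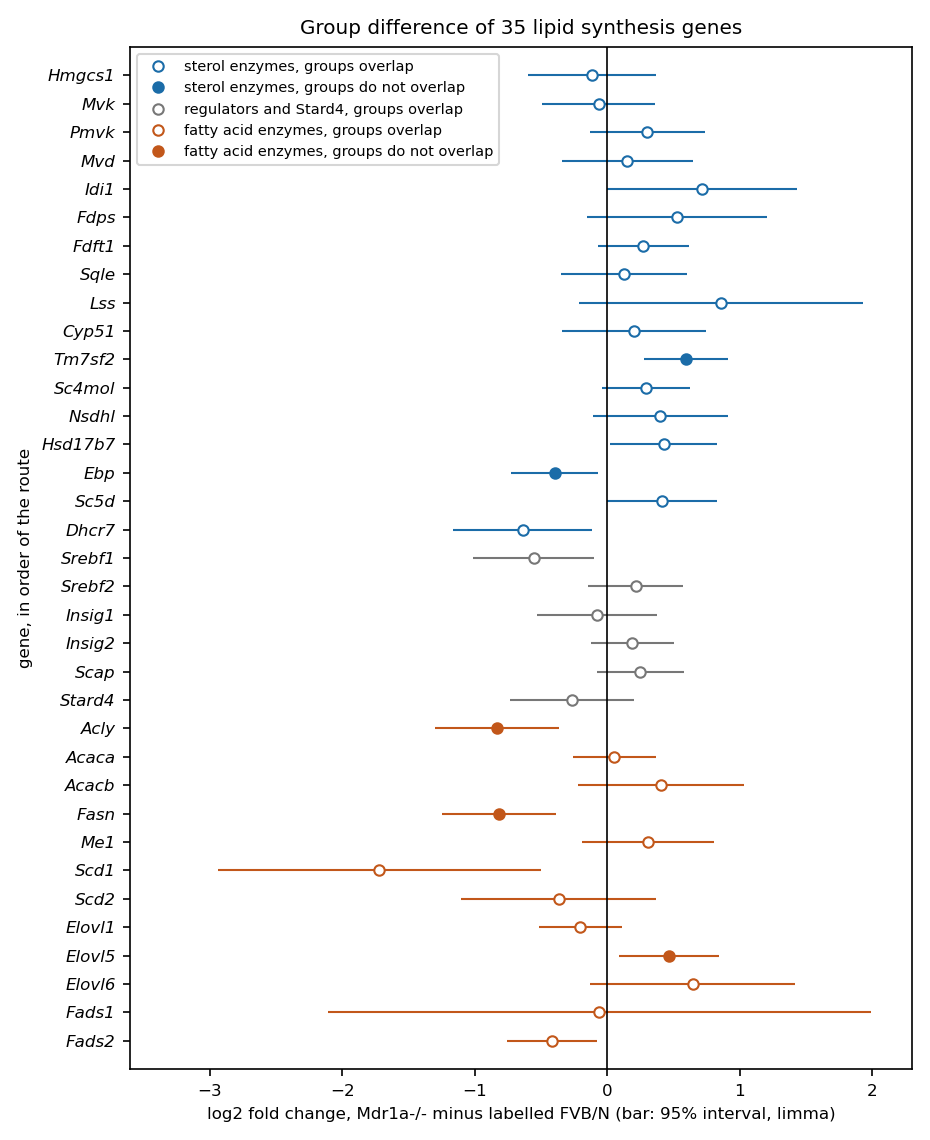
Difference of each of the 35 genes, Mdr1a-/- minus labelled FVB/N, in log2 units with its 95% limma interval, in the order of the route; filled points mark genes whose groups do not overlap. Most sterol enzymes lie right of 0 (13 of 17), while Acly, Fasn and Scd1 lie left of it at -0.83, -0.82 and -1.72.

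In the sterol route the differences leaned upward without any call. Of the 17 enzymes, 13 (76.5%) had a positive difference on the brightest probe, with a median of 0.29. Of all probes, 53.5% were positive, with a median of 0.02. The probes of Mvk, Fdft1 and Lss disagreed in sign. The genes share the same 8 arrays, so these counts are a description of the set. By step, the median was 0.23 over the 6 genes from Hmgcs1 to Fdps, 0.27 over the 3 that make squalene and lanosterol, and 0.35 over the 8 that act after lanosterol.

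Among the genes of the mevalonate steps, Idi1, the isopentenyl diphosphate isomerase, had the largest difference. Its levels were 0.29, 0.12, -0.90 and 0.34 in Mdr1a-/- replicates 1 to 4 and -0.43, -1.06, -1.23 and -0.29 in the arrays labelled FVB/N. Mdr1a-/- replicate 3 lay among the FVB/N arrays, so the groups overlapped, and the difference of 0.72 ± 0.32 (SE, n = 4 per group) did not pass (adjusted p = 0.334). Fdps, the farnesyl diphosphate synthase, was at 0.52 and 0.61 in Mdr1a-/- replicates 1 and 4 but at -0.57 and -0.45 in replicates 2 and 3. Its FVB/N arrays read -0.29, -0.97, -0.43 and -0.29. The difference was 0.53 ± 0.30 (adjusted p = 0.48), against 0.06 ± 0.33 on a dimmer probe. The phosphomevalonate kinase Pmvk was likewise at 0.55 and 0.54 in replicates 1 and 4 and at -0.20 and 0.01 in the other two, with a difference of 0.30 ± 0.19. Hmgcs1, which makes the precursor of mevalonate and carries the sterol element, had a difference of -0.11 ± 0.22, and its groups overlapped widely. Mvk, the mevalonate kinase, differed by -0.06 ± 0.19, but by 0.36 ± 0.24 on a probe of nearly equal brightness. Mvd, the decarboxylase that follows, differed by 0.15 ± 0.22.

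For the steps from farnesyl diphosphate to lanosterol, the differences were 0.27 ± 0.15 for the squalene synthase Fdft1 and 0.13 ± 0.21 for the squalene epoxidase Sqle. A dimmer Fdft1 probe gave -0.002 ± 0.25. The lanosterol synthase Lss had the largest estimate of the sterol route, 0.86 ± 0.48, but it rested on 1 array. Its levels were 0.12, 1.04, 0.61 and 2.58 in the Mdr1a-/- arrays and 0.82, -0.21, -0.05 and 0.36 in the FVB/N arrays, so replicate 4 stood far above the others and the groups overlapped. Its 3 probes disagreed in sign, from -0.17 to 0.86. Without Mdr1a-/- replicate 4, the difference was 0.36.

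After lanosterol, genes with small p-values lay on both sides. Tm7sf2, a sterol reductase that acts next to the lanosterol demethylase, read -0.55, -0.74, -0.67 and -0.79 in the Mdr1a-/- arrays and -1.30, -1.38, -1.42 and -1.04 in the arrays labelled FVB/N. Every Mdr1a-/- array lay above every FVB/N array, and the difference was 0.59 ± 0.14, or 1.51-fold, with an adjusted p of 0.0595. This p passed the threshold without background correction (0.0192), with dim probes left out (0.0376) and with the mean over the probes of each gene (0.0443). In the other 20 of 23 settings it did not pass, among them scan day as a block (0.193) and the adipocyte covariate, under which the difference was 0.44 (0.421). Ebp, the sterol isomerase, read -0.82, -0.74, -1.02 and -0.71 against -0.54, -0.60, -0.23 and -0.33, so that every Mdr1a-/- array was below every FVB/N array. Its difference of -0.40 ± 0.15 did not pass (adjusted p = 0.226). Dhcr7, the reductase of the last step to cholesterol, read 0.18, -0.01, 0.13 and -0.20 against 0.62, 0.02, 1.15 and 0.85. The groups overlapped only through FVB/N replicate 2, and the difference was -0.64 ± 0.23 (adjusted p = 0.224). The other Dhcr7 probe gave -0.71 ± 0.20 with no overlap (adjusted p = 0.104).

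The remaining enzymes after lanosterol all had positive differences that did not pass. Hsd17b7, a sterol ketoreductase, differed by 0.42 ± 0.18 and the sterol desaturase Sc5d by 0.41 ± 0.18, against 0.09 ± 0.18 on a dimmer Sc5d probe. Nsdhl, a sterol dehydrogenase, differed by 0.40 ± 0.23, the methyl oxidase Sc4mol (now Msmo1) by 0.29 ± 0.15 and the lanosterol demethylase Cyp51 by 0.20 ± 0.24. A Cyp51 probe of nearly equal brightness gave 0.83 ± 0.26 (adjusted p = 0.144), so the size for Cyp51 depends on the probe. The order within a group recurred across these genes. The array labelled FVB/N replicate 2 was the lowest of its group for 14 of the 17 sterol enzymes, and Mdr1a-/- replicate 1 was the highest of its group for 11 of 17. FVB/N replicate 2 also had the fewest probes above background of all arrays, 27596 or 67.0%, and without it the median of the sterol enzymes was 0.22. The part of that array's quality in the order was not tested.

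**Figure D2:**
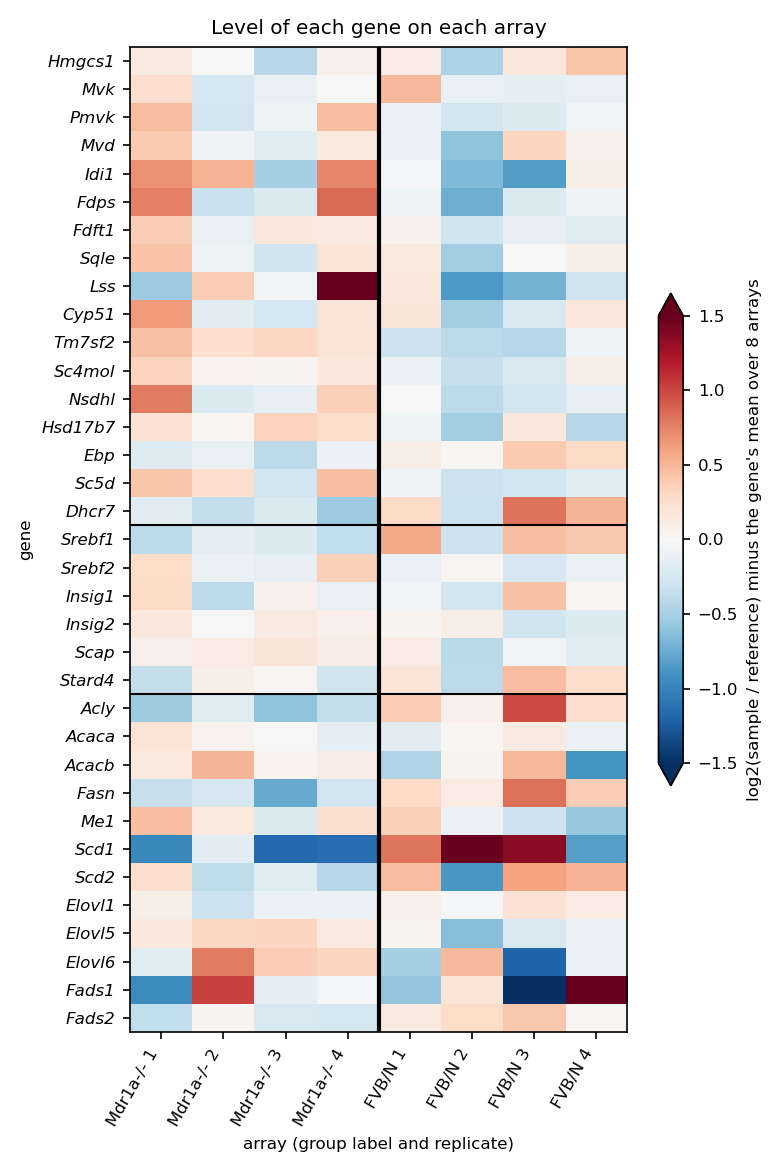
Level of each of the 35 genes on each of the 8 arrays, as log2(sample / reference) minus the gene's mean over all arrays, with sterol enzymes above, control genes in the middle and fatty acid enzymes below; colours stop at 1.5 in either direction. FVB/N replicate 2 is blue across most sterol enzymes, and Mdr1a-/- replicate 1 is red.

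Among the fatty acid enzymes the smallest p-values belonged to Acly and Fasn, at the start and the end of palmitate synthesis, and both were lower in the Mdr1a-/- arrays without passing. Acly, the ATP citrate lyase, read 0.12, 0.47, 0.05 and 0.29 in the Mdr1a-/- arrays and 1.02, 0.72, 1.63 and 0.89 in the arrays labelled FVB/N. All Mdr1a-/- arrays lay below all FVB/N arrays, with a difference of -0.83 ± 0.21, or 1.78-fold lower, and an adjusted p of 0.0743. Fasn, the fatty acid synthase, read -0.57, -0.47, -0.98 and -0.51 against 0.08, -0.10, 0.61 and 0.15. These groups did not overlap either, and the difference was -0.82 ± 0.19, or 1.76-fold lower, with a 95% interval from -1.24 to -0.39 and an adjusted p of 0.0571. The threshold was passed without background correction for Acly (0.0401) and Fasn (0.0402), with array weights for both (0.0432 and 0.0335), and with dim probes left out for Fasn (0.0381). It was missed in the other settings, up to an adjusted p of 0.416 for Acly and 0.396 for Fasn. The dimmer probe of each gene showed a smaller difference, -0.07 ± 0.17 for Acly and -0.26 ± 0.19 for Fasn, and with the probes averaged the differences were -0.45 (0.185) and -0.54 (0.152). By scan day, Fasn differed by -0.86 and Acly by -1.03 on day 2, with 2 arrays per group. The values on day 3 were -1.002 and -0.76, but they rest on 1 Mdr1a-/- array against 2, and day 1 had no FVB/N array.

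The other enzymes grouped here with Acly and Fasn were positive on their brightest probes. Acaca, the acetyl-CoA carboxylase of the cytosol, differed by 0.05 ± 0.14 on its brightest probe, while its other 4 probes were negative, from -0.37 to -0.10, and none passed. Acacb, the carboxylase at the mitochondria, differed by 0.41 ± 0.28. Me1, the malic enzyme that supplies reducing power, differed by 0.31 ± 0.22. None of these 3 passed the test, and the arrays of the 2 groups overlapped for each.

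Scd1, a stearoyl-CoA desaturase, had the largest difference of the 35 genes and a wide spread. It read -1.67, -0.87, -1.87 and -1.85 in the Mdr1a-/- arrays and 0.10, 1.40, 0.65 and -1.53 in the arrays labelled FVB/N. FVB/N replicate 4 lay among the Mdr1a-/- arrays, while the other 3 FVB/N arrays lay above all of them. The difference was -1.72 ± 0.54, or 3.3-fold lower (adjusted p = 0.149). Without FVB/N replicate 4 it was -2.28 and passed (adjusted p = 0.0234), but leaving out that low array widens the difference by construction. In the other 7 fits without 1 array it did not pass (limma, adjusted p up to 0.33). Within each group, markers of fat cells ordered the arrays as Scd1 did, but not as every fatty acid enzyme did. FVB/N replicate 2 was the highest of its group for these markers. It was the lowest for 5 of the 12 fatty acid enzymes, Fasn, Acly and Scd2 among them, and the highest for 2. Over 11 adipocyte genes the mean level was 0.21, 1.15, 0.80 and -1.05 in the FVB/N arrays and -0.73, -0.30, -0.92 and -0.88 in the Mdr1a-/- arrays. All 11 were above background on every array except Mdr1a-/- replicate 3, where 9 were. Of the 11, 10 had a negative difference and none passed (5 lower at an unadjusted p under 0.05 in limma). Adipoq, the hormone adiponectin, ranged from -0.79 to 3.08 among the FVB/N arrays. With the mean of these markers as a covariate, the difference was -0.44 for Scd1 (adjusted p = 0.465), -0.77 for Fasn (0.322) and -0.72 for Acly (0.416). In bulk RNA of the colon, fewer cells of a type and less RNA per cell cannot be told apart.

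**Figure D3:**
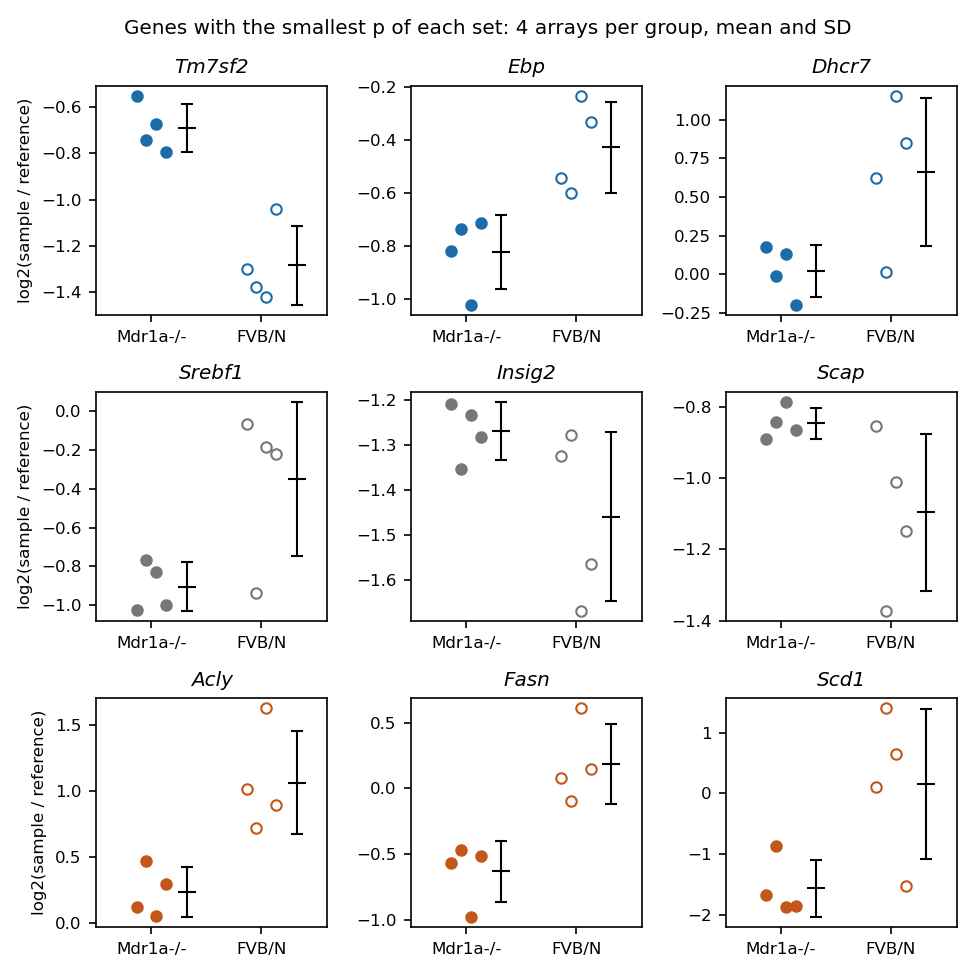
Level of the 3 genes with the smallest p of each set (sterol, control, fatty acid) on each array as log2(sample / reference), with the mean and SD of 4 arrays per group; each panel has its own axis, and panels are headed FVB/N for the arrays so labelled. The groups do not overlap for Tm7sf2, Ebp, Acly and Fasn, while 1 FVB/N array lies with the Mdr1a-/- arrays for Dhcr7, Srebf1 and Scd1.

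The other desaturases and elongases went both ways. Elovl5, an elongase of polyunsaturated fatty acids, read -1.18, -1.03, -1.02 and -1.20 in the Mdr1a-/- arrays and -1.30, -1.98, -1.58 and -1.43 in the FVB/N arrays. Every Mdr1a-/- array was above every FVB/N array, with a difference of 0.47 ± 0.17 (adjusted p = 0.219). Elovl6, the elongase of palmitate, differed by 0.64 ± 0.34 with overlap. Fads2, a desaturase of polyunsaturated fatty acids, differed by -0.42 ± 0.15 (adjusted p = 0.22), Scd2, a second stearoyl-CoA desaturase, by -0.37 ± 0.33 and Elovl1, an elongase of long chains, by -0.20 ± 0.14. Fads1, the desaturase that acts beside Fads2, varied most between mice. It read -0.04, 1.92, 0.77 and 0.89 in the Mdr1a-/- arrays and 0.33, 1.10, -1.37 and 3.71 in the FVB/N arrays, and the group difference of -0.06 ± 0.91 was small beside that spread. Over all 12 fatty acid enzymes, 5 (41.7%) were positive and the median difference was -0.13. By step, the median was 0.05 over the 5 genes from Acly to Me1 and -0.20 over the 7 desaturases and elongases.

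None of the 6 control and carrier genes passed the test. Srebf1, the SREBP gene with the fatty acid programme, read -1.02, -0.77, -0.83 and -0.999 in the Mdr1a-/- arrays and -0.06, -0.94, -0.18 and -0.22 in the FVB/N arrays. FVB/N replicate 2 lay with the Mdr1a-/- arrays and the other 3 lay above them, so the difference of -0.55 ± 0.20 did not pass (adjusted p = 0.223). Without FVB/N replicate 2 it was -0.75 and passed (adjusted p = 0.0418), but leaving out that low array widens the difference by construction. In the other 7 fits without 1 array it did not pass (limma, adjusted p up to 0.417). Srebf2 differed by 0.21 ± 0.16, with 0.55, 0.20, 0.16 and 0.64 in the Mdr1a-/- arrays against 0.18, 0.31, 0.03 and 0.18. Scap read -0.89, -0.84, -0.79 and -0.86 against -0.85, -1.37, -1.01 and -1.15, a difference of 0.25 ± 0.15. The Mdr1a-/- arrays were close together for Scap and the FVB/N arrays spread below them, with FVB/N replicate 1 among them. Insig2 differed by 0.19 ± 0.14, Insig1 by -0.07 ± 0.20 and Stard4, which carries sterols through the cytosol, by -0.27 ± 0.21. The brightest Insig1 probe was above background on 2 Mdr1a-/- and 3 FVB/N arrays, and the other 34 genes were above background on all 8 arrays.

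Set against each other, the sterol and fatty acid enzymes had medians of opposite sign, 0.29 and -0.13. On each array, the mean of the sterol enzymes minus the mean of the fatty acid enzymes was 0.67, 0.02, 0.27 and 0.67 in the Mdr1a-/- mice and 0.16, -0.39, -0.01 and 0.07 in the arrays labelled FVB/N. The groups overlapped, since Mdr1a-/- replicate 2 lay within the FVB/N range. The sterol median was 0.19 on scan day 2 and 0.09 on day 3, with its single Mdr1a-/- array, and the fatty acid median was -0.06 and -0.07. Mean sterol levels were 0.08, -0.26, -0.37 and 0.09 in the Mdr1a-/- arrays and -0.19, -0.67, -0.34 and -0.22 in the FVB/N arrays. Replicates 1 and 4, the highest Mdr1a-/- arrays, were also the highest for the 6 markers of dividing cells, at 0.58 and 0.40 against -0.04 and -0.33 in replicates 2 and 3. In the FVB/N arrays the dividing cell markers lay between -1.15 and -0.92. FVB/N replicate 2 was the highest of its group for them, at -0.92, but the lowest for the sterol enzymes, at -0.67. Of the 6 markers, 3 passed, all higher. The part of dividing cells in the sterol levels was not tested.

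**Figure D4:**
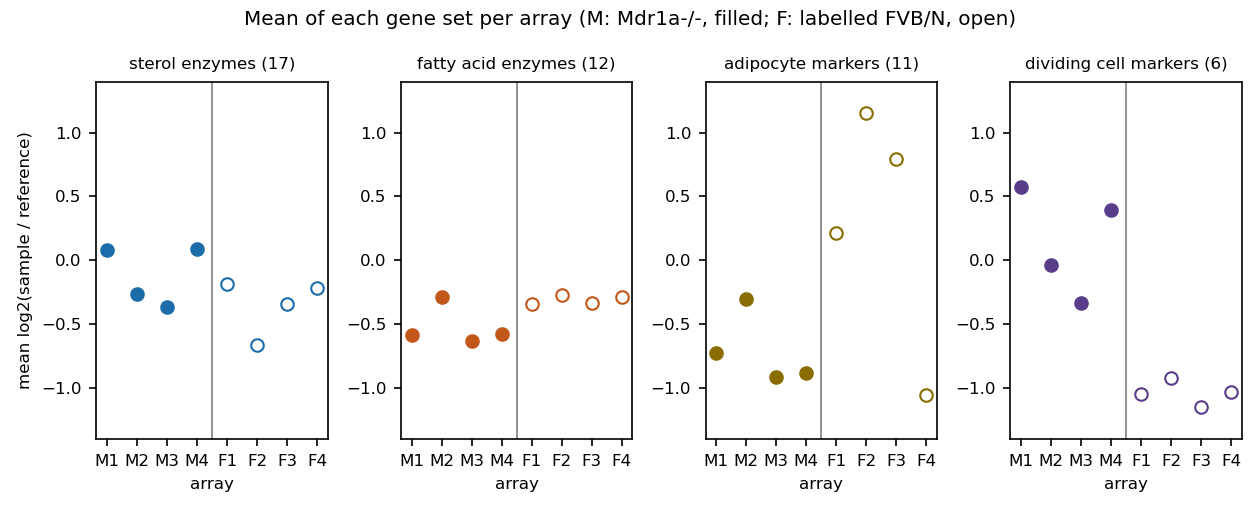
Mean level per array, as log2(sample / reference), of the 17 sterol enzymes, the 12 fatty acid enzymes, 11 adipocyte markers and 6 markers of dividing cells; M1 to M4 are the Mdr1a-/- arrays and F1 to F4 those labelled FVB/N. The sterol means overlap between groups, and F4 is the one FVB/N array with low adipocyte markers, at -1.05.

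The authors' deposited table tested the same probes for all 35 genes, with a normalization not given in the sources used here. On the brightest probes it called 4 of the 35 higher, where 6.3% of its 35095 probes were called higher, and 1 lower, against 4.35%. In the authors' deposited table the higher genes were Tm7sf2 (0.48, adjusted p = 0.0482), Sc5d (0.49, 0.0113), Acacb (0.71, 0.0295) and Elovl5 (0.58, 0.00226). The lower gene in the authors' deposited table was Acly at -0.60 (adjusted p = 0.0366), while Fasn was at -0.39 (0.379). On dimmer probes the authors' deposited table also called Lss lower (-0.70, adjusted p = 0.00507) and Elovl5 higher (0.36, 0.00943). The brightest Lss probe was at -0.09 there (0.832). Its median was -0.01 over the sterol enzymes and 0.03 over the fatty acid enzymes, so neither median above kept its sign there.

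Genes next to these routes moved in a few places. Of 47 further genes of fatty acid and triglyceride metabolism, 3 rose and 2 fell, where 1.53% of all probes were called higher and 1.45% lower. Acss2, which makes cytosolic acetyl-CoA from acetate and so feeds the same pool as Acly, read -0.86, -0.59, -0.37 and -1.05 in the Mdr1a-/- arrays and 1.10, 0.78, 1.22 and 0.97 in the FVB/N arrays. The groups lay far apart, and Acss2 fell by 1.74 ± 0.18 (adjusted p = 0.00216). Ppara, the nuclear receptor of fatty acid oxidation, fell by 1.27 ± 0.15 (adjusted p = 0.00342). Acsl4, which activates arachidonic acid, rose by 1.18 ± 0.13 (adjusted p = 0.0023), Lpin2, a phosphatidate phosphatase, by 1.14 ± 0.17 (0.00811) and Degs1, the dihydroceramide desaturase, by 0.83 ± 0.17 (0.036). Of 36 genes of sterol uptake, export and further synthesis, none passed the test as higher (18 were positive and 4 were higher at an unadjusted p under 0.05 in limma) and Abcg5, which with Abcg8 exports sterols into the lumen, fell by 1.44 ± 0.24 (adjusted p = 0.0135). The authors' deposited table calls 4 of these 36 genes higher and 1 lower, and 7 higher and 3 lower of the 47. None of 11 further regulators of these routes passed (1 lower at an unadjusted p under 0.05), the 3 NF-Y subunit genes included (Nfya 0.56 ± 0.36, Nfyb -0.07 ± 0.21, Nfyc -0.24 ± 0.16).

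The arrays had 27596 to 35541 of 41174 probes above background, and none of the 35 genes came near saturation. Abcb1a, the disrupted gene, read -0.89, -0.95, -0.70 and -0.97 in the Mdr1a-/- arrays and -0.81, 0.01, -0.49 and -0.62 in the arrays labelled FVB/N, a difference of -0.40 ± 0.19 (adjusted p = 0.362) with overlap through FVB/N replicate 1. The authors' deposited table gives the same probe as lower by more, at -1.62 (adjusted p = 9.75e-05), and the reason for the gap was not tested. In the protocol's list of slides, 3 of the 4 Mdr1a-/- files and none of the 4 FVB/N files were found. Of other cell types, leukocyte markers were at 1.26 to 2.07 in the Mdr1a-/- arrays and 0.10 to 0.90 in the FVB/N arrays, with 4 of 10 called higher. Colon epithelium markers were at 0.11 to 0.27 against 0.06 to 0.48, with none of 12 passing (1 higher and 4 lower at an unadjusted p under 0.05). Pancreatic acinar markers, at -1.50 to 1.09 against -0.02 to 1.78, had no gene passing (5 lower at an unadjusted p under 0.05). The same held for smooth muscle markers, at -0.80 to -0.07 against -0.37 to 0.26 (2 lower), and for hepatocyte markers, at -3.31 to -2.81 over all arrays (none). The median difference of the 11 pancreatic acinar markers was -1.71 here and 0.56 in the authors' deposited table, and the reason was not tested. The part of these cell types in the results was not tested beyond the fits given here.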

How the data were processed

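Per the file headers, the deposited array files hold, for either dye, the foreground and background intensity of a spot, and a normalized log2 ratio. Per the submitters' processing notes, the authors used limma, with no version. The deposited log2 ratios equalled background-subtracted, loess-normalized reference over sample, so their sign was turned, and they served as an alternative. The authors' deposited table of fold changes holds log2 fold changes, p-values and a t score, read as log2 although its description says log10.

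The intensities were analysed here with limma 3.58.1 in R 4.3.3: normexp background correction with offset 50, loess within arrays with control spots at weight 0, and the mean over spots of a probe. Groups were compared with lmFit and eBayes, with Benjamini-Hochberg adjustment over 41174 probes. Above background means a net Cy3 signal over the 95th percentile of the 314 negative controls. Array number, 4 per group, limits the precision. The labels name separate mice, and no dyes were swapped. The method was tested on simulated data. Genes were matched by array name and RefSeq symbols, and the brightest probe stands for a gene. The genes given array by array include the 3 with the smallest p of each set, none passing the threshold, and others were chosen after their values were seen. The members and lists were chosen with earlier results of these data known. Scan days and 23 alternative settings were tried, 8 of which leave out 1 array each. A slide carried a single array, which bars it as a block.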

Additional observations from a re-analysis of the deposited data

Results flagged for a closer look

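In 70 groups of 4 arrays (35 genes in 2 groups), 1 array stood apart from the others of its group in 2 cases, measured as its gap to the nearest array over the whole range of the group, with a critical value of 0.829. Chance flags about 1 group in 20, so a count of 2 among 70 is not more than chance gives. Mvk was at 0.41 in the array labelled FVB/N replicate 1, against -0.22 to -0.19 in the other 3. Scd2 was at -0.75 in the array labelled FVB/N replicate 2, against 0.59 to 0.73 in the other 3.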

How the results depend on the processing

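The median of the sterol enzymes kept its sign in all 23 alternatives, from 0.15 with the adipocyte covariate to 0.38, and from 0.20 to 0.36 when 1 array was left out. The median of the fatty acid enzymes stayed negative in all of them and was -0.29 with array weights, -0.25, -0.28 and -0.26 with adipocyte, pancreatic acinar and colon epithelium markers as covariates, -0.05 with scan day as a block and -0.24 to -0.08 without 1 array (-0.24 without FVB/N replicate 1, -0.21 without Mdr1a-/- replicate 2, -0.08 without FVB/N replicate 4). Members called lower and higher were 2 and 1 without background correction, 1 and 1 over probes above background on at least 4 arrays, 2 and 0 with array weights, 0 and 1 when the probes of a gene were averaged, and 0 to 1 lower without 1 array (Srebf1 without FVB/N replicate 2, Scd1 without FVB/N replicate 4). Over all probes, lower and higher calls were 939 and 1081 with array weights, 115 and 133 with the scan day block, 62 and 72, 164 and 185, and 351 and 354 with the adipocyte, pancreatic and epithelium covariates, and 0 and 0 on scan day 2 alone, where 4 arrays leave 2 residual degrees of freedom (2109 and 2091 at an unadjusted p under 0.05, limma). Without background correction, 877 of all 41174 probes were called lower and 866 higher, against 598 and 628 in the main fit. With dim probes left out the calls were 786 and 801 of 34144, and with probes averaged 457 and 494 of 28098. Leaving out 1 array gave 247 to 675 lower and 250 to 783 higher over all probes. The causes were not tested. Correlations of deviations were -0.03 to 0.11 for arrays of equal replicate number and -0.15 to 0.15 for the other pairs. Equal numbers thus showed no pairing of mice beyond that range, and these values cannot show a weak one. A replicate block gave 286 lower and 310 higher probes and no member. Aquantile leaves log ratios as they are by construction. The dimness of a probe limits Insig1, and 4 arrays per group with standard errors up to 0.91 limit the rest.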
